A study of Mus musculus with 25 samples.

Results

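The nuclear-encoded respiratory chain genes encode the subunits of the mitochondrial complexes I to V that are made from nuclear DNA. They were found by symbol in each of the 25 libraries: the Ndufa, Ndufb, Ndufc, Ndufs and Ndufv genes of complex I, Sdha to Sdhd of complex II, the Uqcr genes and Cyc1 of complex III, the Cox4 to Cox8 families of complex IV and the Atp5 genes of complex V. Of 24412 symbols in the files, 85 matched, with 37 in complex I, 4 in complex II, 9 in complex III, 18 in complex IV and 17 in complex V. The level for testing, an FPKM (fragments per kilobase of transcript, relative to the mapped total) of at least 1 in at least 3 libraries, was reached by 80 of the 85: all 37, 4 and 9 of complexes I to III, 14 of complex IV and 16 of complex V. Each of the 80 reached an FPKM of 1 at more than 1 stage. Uqcrc1 did so in 6 late and 1 early 2-cell libraries and in 0 oocyte or zygote libraries. It was therefore tested only because of the late 2-cell stage. The other 5 were Cox7a1, Cox7b2, Cox8b, Cox8c and Atp5s. A few symbols carry the name of a complex without being one of its classical subunits: Cox7a2l helps to join complexes into supercomplexes, Ndufa4 is now counted with complex IV although it is listed here under complex I by its symbol, and Atp5s and Atp5sl are not subunits of the synthase core.

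Complexes I and II pass electrons from NADH and succinate to ubiquinone, complex III passes them on to cytochrome c, complex IV hands them to oxygen, and complexes I, III and IV pump protons while they do so. Complex V, the ATP synthase, lets the protons flow back and makes ATP. Each of complexes I, III, IV and V also holds subunits encoded by mitochondrial DNA, and complex II holds none of these. The egg carries a large stock of mitochondria and of maternal mRNA, much of which is cleared while the embryo takes over transcription, and the early mouse embryo relies on oxidation of pyruvate. None of the 13 protein genes of mitochondrial DNA had a value in the files, so the values below cover the nuclear part of each complex.

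RNA was compared between Smarca4 knockout (KO) and wild type (WT) at the MII oocyte (2 KO and 3 WT libraries), the PN3 zygote, a fertilised egg with pronuclei (4 and 4), the early 2-cell embryo (E2C, 3 and 3) and the late 2-cell embryo (L2C, 3 and 3). Smarca4 (Brg1) is an ATPase of the BAF chromatin remodelling complex. Per the labels, the females were 8 to 12 weeks old, were either C57BL/6 with Smarca4flox/flox and Gdf9 Cre, a Cre driven in the oocyte, or B6D2F1 hybrids, and received 7 IU of PMSG and, 48 h later, 5 IU of hCG before sperm injection. Both genotypes share these steps. The labels do not give the strain behind each library: if all WT libraries were B6D2F1, strain and genotype cannot be told apart. They also do not tie replicates to separate females, so the spread behind each p-value is that between these libraries and may be technical.

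Smarca4 itself separated the genotypes in each stage. Its scaled FPKM, which is the FPKM divided by a factor per library, was 0.219 and 0.221 in KO and 26.0 to 30.5 in WT oocytes, and 21.0 to 22.5 in KO and 48.5 to 90.4 in WT late 2-cell embryos. WT E2C replicate 2 had values above 0 for 9345 genes and each of the remaining 24 libraries for 13585 to 16698, and the files give no read depth. In WT E2C replicate 2, 32 of the 80 tested genes of the respiratory chain were listed at 0, against 0 to 7 in each other library. WT L2C replicate 3 also stood apart: the summed level of 11 markers of the 2-cell stage was 421 there, against 274 to 360 in KO L2C libraries and 84.7 and 124 in WT L2C replicates 1 and 2. Markers of cumulus and granulosa cells summed to 1.28 to 8.71 and of blood and immune cells to 0 to 3.59 in all libraries, while 12 oocyte markers summed to 884 to 4681. The 10 markers of sperm and testis summed to 21.7 at most, in a KO E2C library, and to 2.14 to 9.98 elsewhere. In these bulk samples fewer cells and less RNA per cell cannot be told apart, and FPKM is relative to the other RNA of a library.

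The promoters of 7 members are shown because these genes behaved differently in what follows: Atp5g1, Atp5g2 and Atp5g3 encode the same c subunit of ATP synthase, Cox7c and Uqcr11 fell most in complexes IV and III at fertilisation, and Cox8a and Cox6b2 rose. Each line gives 100 bases directly before a RefSeq start of the gene (GRCm38.p6), 5′ to 3′ on the gene's strand. Capitals mark matches to a motif. For Atp5g1 and Atp5g3 that start lies inside the gene's full span, which ends at 96075694 and 73912464. Part of the Atp5g1 line and all of the Atp5g3 line therefore lie within the gene. All 7 genes lie on the minus strand. The windows are at chr11:96075632-96075731 for Atp5g1, chr15:102671048-102671147 for Atp5g2, chr2:73911327-73911426 for Atp5g3, chr13:86046796-86046895 for Cox7c, chr10:80406822-80406921 for Uqcr11, chr19:7217617-7217716 for Cox8a and chr7:4753095-4753194 for Cox6b2.
Atp5g1: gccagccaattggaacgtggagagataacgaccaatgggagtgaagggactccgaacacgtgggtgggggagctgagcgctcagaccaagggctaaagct
Atp5g2: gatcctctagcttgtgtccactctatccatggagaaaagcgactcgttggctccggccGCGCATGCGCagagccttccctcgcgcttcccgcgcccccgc
Atp5g3: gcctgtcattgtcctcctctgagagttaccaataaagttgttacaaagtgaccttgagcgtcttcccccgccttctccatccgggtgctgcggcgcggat
Cox7c: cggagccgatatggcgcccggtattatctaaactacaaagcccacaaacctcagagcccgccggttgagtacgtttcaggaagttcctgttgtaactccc
Uqcr11: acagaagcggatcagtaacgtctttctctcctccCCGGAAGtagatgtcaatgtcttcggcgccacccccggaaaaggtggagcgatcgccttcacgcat
Cox8a: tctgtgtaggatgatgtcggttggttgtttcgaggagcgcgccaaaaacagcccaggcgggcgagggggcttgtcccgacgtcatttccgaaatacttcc
Cox6b2: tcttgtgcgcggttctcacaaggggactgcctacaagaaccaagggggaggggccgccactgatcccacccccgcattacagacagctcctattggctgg
The capitals in Atp5g2 are matches to GCATGCGC, the core of the site of NRF1, a regulator of respiratory genes, which overlap on both strands. Those in Uqcr11 are a match to CCGGAAG, a site of ETS factors such as GABP. No match to these letters, or to the YY1 core AAGATGGCG, lies in the printed bases of the other 5 genes, which says nothing about the factors. In the longer promoters described below, Cox8a had the ETS letters and Uqcr11 also had the NRF1 core.

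The mean over the 80 genes was highest in the oocyte, declined through the zygote to the early 2-cell embryo, and partly recovered in the late 2-cell embryo, in both genotypes. Many single genes took other courses. The fall, the further fall and the rise each had a limma adjusted p under 0.05 in 16 of the 80 in WT and 7 in KO. The matching share of all genes is not given, so these counts cannot be read as particular to the chain. The further fall and the rise share the E2C libraries, so low values there enter both. Many of the 80 were listed at 0 in WT E2C replicate 2. The mean of log2(scaled FPKM + 1) over the 37 genes of complex I was 3.99 ± 0.10 in KO and 3.98 ± 0.03 in WT oocytes (SD over libraries), 3.08 ± 0.11 and 2.94 ± 0.16 in zygotes, 2.32 ± 0.22 and 1.86 ± 0.39 in early 2-cell embryos, and 2.68 ± 0.02 and 2.86 ± 0.21 in late 2-cell embryos. Complexes III and V followed the same course with a fuller return: complex V stood at 4.62 ± 0.06 in KO and 4.71 ± 0.02 in WT oocytes, at 3.19 ± 0.14 and 3.20 ± 0.24 in early 2-cell embryos and at 4.00 ± 0.15 and 4.21 ± 0.35 in late 2-cell embryos. Complex IV varied least, with 4.59 ± 0.04 in KO and 4.61 ± 0.01 in WT oocytes, and 3.62 ± 0.32 and 3.64 ± 0.06 at its lowest, in early 2-cell embryos. Complex II alone had its lowest mean in late 2-cell embryos, at 2.49 ± 0.10 in KO and 2.79 ± 0.22 in WT, against 4.66 ± 0.01 and 4.64 ± 0.05 in oocytes.

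**Figure D1:**
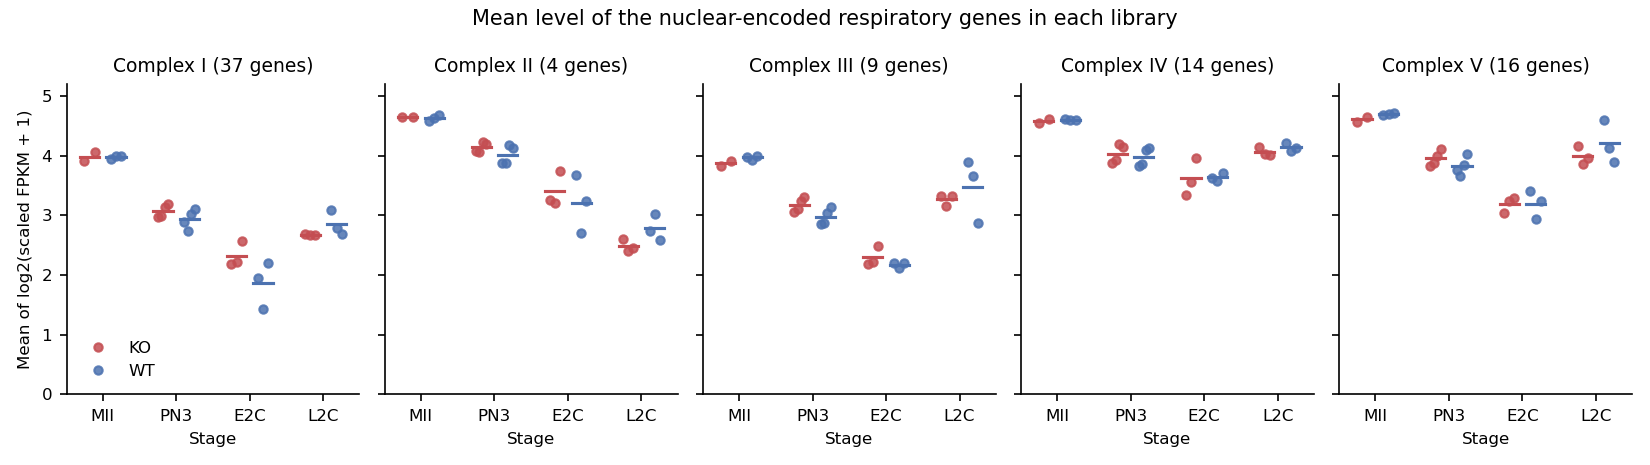
Mean of log2(scaled FPKM + 1) over the tested genes of each complex (vertical axis) at each stage, 1 point per library, KO in red left of WT in blue, with a bar at the group mean. Complexes I, III, IV and V are lowest in early 2-cell embryos (E2C), while complex II is lowest in late 2-cell embryos (L2C).

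At the first step, from the oocyte to the zygote, most of the chain fell in both genotypes. A gene was called when its limma adjusted p was under 0.05 over 12079 genes tested. In KO zygotes against KO oocytes, 61 of the 80 genes fell and 2 rose, where 23.2% of all genes fell and 17.6% rose. The median log2 difference of the 80 was -0.65, against 0 for all genes. In WT zygotes against WT oocytes, 65 fell and 3 rose (26.1% and 19.2% of all genes), with a median of -0.83, also against 0. The counts depended on how the spread was modelled: with an equal spread for all stages 16 members were called in KO, all lower, where 716 of the 12079 genes were, and 35 in WT, 34 lower and 1 higher, where 1342 were. The 2 comparisons share no library, and 56 genes fell in both, which is 56 of 61 in KO and 56 of 65 in WT. The same overlap over all genes is not given here or for the later steps. These shared counts therefore cannot be read as particular to the chain. The values below are those of WT.

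Complex I, the proton-pumping NADH dehydrogenase, had 32 of 37 genes lower in WT zygotes and a median of -0.92. Ndufa9, an accessory subunit near the ubiquinone site, had a scaled FPKM of 1.69, 2.35, 3.39 and 2.49 in WT zygotes, against 18.6, 21.6 and 20.2 in WT oocytes, a fall of 2.62 ± 0.12 on the log2 scale (SE; limma adjusted p = 3.19e-14). The groups do not overlap. Ndufv1, which binds the flavin that takes electrons from NADH, fell to 2.72, 2.04, 4.02 and 3.50, against 18.8, 20.8 and 20.0 (log2 difference -2.38 ± 0.12). The iron-sulphur subunit Ndufs1 fell by 0.92 ± 0.09 only. Ndufa10 went against the rest and rose, with 46.4, 43.2, 42.6 and 47.7 in WT zygotes, against 31.3, 32.0 and 32.7 in WT oocytes (0.48 ± 0.07). Ndufab1, the mitochondrial acyl carrier protein and 1 of the more abundant members, differed by -0.17 ± 0.08 and was not called.

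In complex II, succinate dehydrogenase, the subunits parted ways. Sdha, the flavoprotein that oxidises succinate, stood at 38.5, 37.0, 42.5 and 42.9 in WT zygotes, against 39.8, 40.5 and 42.6 in WT oocytes, a difference of -0.03 ± 0.05. The groups overlap. Its iron-sulphur partner Sdhb fell to 2.60, 2.18, 3.70 and 3.34, against 8.65, 8.44 and 8.92 (-1.31 ± 0.13, limma adjusted p = 1.28e-08). The membrane anchors Sdhd and Sdhc fell by 0.83 ± 0.10 and by 0.32 ± 0.08.

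In complex III, cytochrome bc1, 8 of 9 genes fell. The small subunits led: Uqcr11 stood at 1.16, 1.83, 2.01 and 2.02 in WT zygotes, against 20.1, 19.6 and 21.6 in WT oocytes (-2.97 ± 0.16), and Uqcrq at 16.5, 11.8, 18.6 and 27.9, against 82.2, 89.2 and 91.4 (-2.23 ± 0.14). The subunits that carry electrons fell less, Cyc1 (cytochrome c1) by 0.51 ± 0.11 and the Rieske iron-sulphur protein Uqcrfs1 by 0.42 ± 0.13. Uqcrc2, a core protein, was at 25.1 to 25.8 in WT zygotes and 27.7 to 30.3 in WT oocytes and was not called. The call of Uqcrfs1 was lost without WT PN3 replicate 1 (-0.34).

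Complex IV, cytochrome c oxidase, held the deepest fall and 2 of the 3 rises. Cox7c fell to 0.837, 1.29, 2.60 and 3.57 in WT zygotes, against 23.4, 24.7 and 25.7 in WT oocytes (-3.15 ± 0.21, limma adjusted p = 2.56e-11). Cox4i1, a regulatory subunit, fell by 1.34 ± 0.15. Cox8a rose by 0.54 ± 0.08 and Cox6b2 by 0.47 ± 0.10. In complex V 12 of 16 genes fell. Atp5o, the stalk protein that ties the catalytic head to the stator, fell to 2.81, 3.25, 2.73 and 2.58 in WT zygotes, against 19.8, 22.2 and 21.3 in WT oocytes (-2.53 ± 0.14). The catalytic subunits of the head differed by less: Atp5b stood at 58.7, 57.3, 62.4 and 61.0, against 57.9, 62.1 and 59.9 (0.00 ± 0.05), and Atp5a1 at 73.7 to 80.2, against 86.9 to 89.5 (-0.18 ± 0.05, called).

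**Figure D2:**
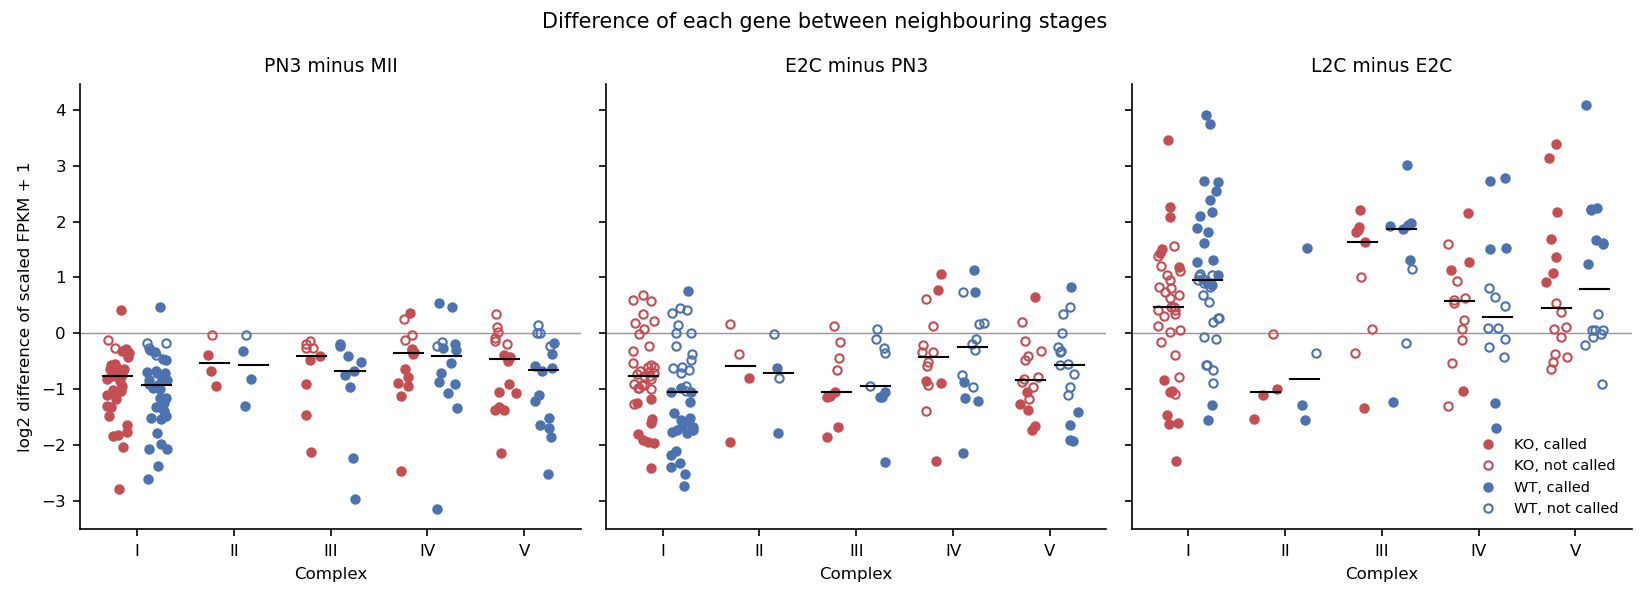
Log2 difference of each tested gene (vertical axis) for PN3 minus MII, E2C minus PN3 and L2C minus E2C, by complex, with KO in red left of WT in blue. Filled points are genes with a limma adjusted p under 0.05, open points the others, and black bars are medians. Most points lie below 0 in the PN3 and E2C panels, and most of complexes I, III, IV and V above 0 in the L2C panel.

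From the zygote to the early 2-cell embryo the decline went on in part of the chain. In KO embryos 24 of the 80 genes fell and 3 rose, where 12.2% of all genes fell and 8.87% rose, and the median was -0.77, against 0.00 for all genes. In WT embryos 35 fell and 4 rose (18.1% and 12.9% of all genes), with a median of -0.84 against -0.05. These 2 comparisons share no library, and 21 genes fell in both, 21 of 24 in KO and 21 of 35 in WT. Without WT E2C replicate 2, 36 genes fell in WT and 3 rose and the median was -0.66. With the FPKM as deposited the median of all genes shifted to -0.20 and that of the 80 to -1.01. The KO count leaned on single libraries more: 9 genes were called without KO E2C replicate 1, 13 without replicate 2 and 18 without replicate 3.

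Complex I held 9 of the 24 falls in KO and 21 of the 35 in WT. Ndufb4, of the membrane arm, fell to 3.69, 1.92 and 6.05 in KO early 2-cell embryos, against 22.2, 22.1, 25.7 and 24.2 in KO zygotes (-2.42 ± 0.43), and to 12.2, 0 and 4.05 in WT, against 17.6, 19.9, 19.0 and 20.4 (-2.32 ± 0.43). Ndufa8, an accessory subunit facing the intermembrane space, fell to 5.32, 12.0 and 5.09 in KO, against 15.0, 17.8, 19.0 and 20.6 (-1.26 ± 0.44), and to 2.86, 0 and 8.72 in WT, against 14.8, 15.1, 21.6 and 23.4 (-2.53 ± 0.44). Both were called in WT also without WT E2C replicate 2, the library at 0, with -1.31 for Ndufb4 and -1.66 for Ndufa8. The KO call of Ndufa8 was lost without any 1 of 6 of the 7 KO libraries in that comparison, with differences between -1.61 and -1.06.

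In complex II Sdhd fell to 8.28, 4.06 and 5.53 in WT early 2-cell embryos, against 19.8, 21.8, 25.1 and 23.4 in WT zygotes (-1.80 ± 0.28), while Sdha had 42.2, 35.4 and 41.7 and was not called (-0.02 ± 0.14). In complex III Uqcrb, a small subunit of the ubiquinone pocket, fell to 3.84, 0 and 3.08, against 11.1, 14.4, 11.7 and 12.9 (-2.32 ± 0.46), and Uqcrc2 fell by 1.05 ± 0.23. In complex IV Cox4i1 fell to 3.52, 3.42 and 5.44 in KO, against 20.8, 22.1, 29.2 and 24.2 (-2.30 ± 0.42). In WT it fell to 2.56, 9.53 and 2.89, against 17.4, 16.0, 29.1 and 30.2 (-2.15 ± 0.42). Complex V had 4 falls in WT, led by Atp5g2 (-1.93 ± 0.40, and -1.09 without WT E2C replicate 2) and by Atp5h, a stator subunit that stood at 14.0, 23.9 and 19.2, against 72.2, 62.9, 74.5 and 86.1 (-1.92 ± 0.24).

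The rises of this step were few. Atp5b, the catalytic beta subunit, rose to 101, 95.2 and 106 in KO early 2-cell embryos, against 62.7, 62.8, 65.3 and 66.0 in KO zygotes (0.64 ± 0.13), and to 105, 133 and 88.3 in WT embryos, against 58.7, 57.3, 62.4 and 61.0 (0.83 ± 0.13, limma adjusted p = 3.55e-05). In both genotypes each 2-cell library exceeded each zygote library. Its partner alpha subunit Atp5a1 was not called, at -0.40 ± 0.15 in KO and -0.32 ± 0.15 in WT. Cox6b2 rose by 1.13 ± 0.29, Cox8a by 0.74 ± 0.24 and Ndufa11 by 0.76 ± 0.26 in WT. These calls were each lost without at least 1 library: Cox6b2 without WT E2C replicate 1 (0.92), Cox8a without replicate 1 (0.69) or 3 (0.59), and Ndufa11 without replicate 1 (0.79) or 2 (0.51).

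From the early to the late 2-cell embryo, when the embryo's own genome is widely transcribed, part of the chain rose and part fell. In KO embryos 21 of the 80 were called higher and 12 lower, where 26.8% and 14% of all genes were, so the called shares of the chain were near those of all genes, and the median was 0.47, against 0.15 for all genes. In WT embryos 35 rose and 7 fell (34.1% and 18.3% of all genes), and the median was 0.91, against 0.25. The 2 comparisons share no library, and 20 genes rose in both (20 of 21 in KO, 20 of 35 in WT) and 6 fell in both (6 of 12 and 6 of 7). None was called in opposite directions at any of the 3 steps. Without WT E2C replicate 2, 32 genes rose and 9 fell in WT, with a median of 0.61. Without WT L2C replicate 3 the counts were 36 and 8. In KO, 21 genes were called in all without KO E2C replicate 1, and with the trend along transcript length taken out 18 rose and 16 fell. Of the 65 genes that fell in WT zygotes against oocytes, 34 rose at this step, which shares no library with the first and holds 35 rises in all. The matching count over all genes that fell in WT zygotes is not given, so this cannot be read as particular to the chain.

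Complex III had the highest median of the 5 complexes at this step in WT, 1.87. Uqcrc1, a core protein, was low at the earlier stages: KO late 2-cell embryos had 6.07, 4.04 and 5.02 and WT 13.8, 10.7 and 6.66, against 0.404, 0 and 0.555 in KO and 1.22, 0 and 0.127 in WT early 2-cell embryos. The differences were 2.21 ± 0.30 in KO and 3.01 ± 0.30 in WT. Uqcrc1 reached the level for testing only through the late 2-cell libraries, so its calls at this step are not independent of that filter. Cyc1 rose by 1.90 ± 0.38 in KO and by 1.98 ± 0.38 in WT, Uqcrfs1 by 1.63 ± 0.48 and 1.92 ± 0.48, and Uqcrq by 1.81 ± 0.52 and 1.94 ± 0.52. The call of Uqcrfs1 in KO was lost without KO E2C replicate 1 (1.31). Uqcrc2, the partner core protein of Uqcrc1, went the other way, by -1.33 ± 0.30 in KO and -1.23 ± 0.30 in WT, to 2.46, 4.78 and 4.04 in KO and 6.19, 5.36 and 2.49 in WT.

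Complex V had 7 rises and no fall in KO, and 8 and none in WT. Atp5j, coupling factor 6 of the stator, had 36.4, 33.2 and 34.1 in KO and 62.0, 61.4 and 40.7 in WT late 2-cell embryos, against 4.27, 1.17 and 2.36 in KO and 7.08, 0 and 3.06 in WT early 2-cell embryos. Its rise of 3.40 ± 0.58 in KO and 4.10 ± 0.58 in WT was the steepest of complex V. Atp5j shares exon bases with Gabpa, the DNA-binding subunit of GABP, on the opposite strand. Gabpa rose by 4.26 ± 0.23 in KO at this step. No source used here says whether the counting used strand, and the part of this in the result was not tested. Atp5o rose by 2.18 ± 0.51 in KO and by 2.22 ± 0.51 in WT. It shares exon bases with Donson on the same strand, and the part of this in its rise or its earlier fall was not tested. In complex I the KO libraries had 6 rises and 7 falls, and the WT libraries 16 and 2. Ndufb10, of the membrane arm, reached 19.1, 18.9 and 18.7 in KO and 28.7, 20.4 and 14.9 in WT late 2-cell embryos, against 0.414, 0.876 and 1.20 in KO and 0, 0 and 1.91 in WT early 2-cell embryos (3.47 ± 0.58 and 3.92 ± 0.58). Ndufa10 fell by 1.62 ± 0.27 in KO and by 1.56 ± 0.27 in WT.

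Complex II was the exception to the recovery. Sdha, which was not called at the earlier steps in either genotype, fell to 19.1, 14.2 and 13.6 in KO late 2-cell embryos, against 50.5, 48.4 and 42.3 in KO early 2-cell embryos (-1.54 ± 0.19). In WT it fell to 12.2, 14.3 and 12.1, against 42.2, 35.4 and 41.7 (-1.55 ± 0.19, limma adjusted p = 3.28e-07). Sdhc fell by 1.01 ± 0.30 in KO and by 1.29 ± 0.30 in WT, and Sdhd fell in KO by 1.12 ± 0.36. In KO the Sdhc and Sdhd calls were lost without KO E2C replicate 3 (-0.88 and -0.67), the Sdhc call also without KO L2C replicate 2 (-0.90) and the Sdhd call without KO L2C replicate 1 (-0.88). Sdhb rose in WT by 1.52 ± 0.47, a call that was lost without WT E2C replicate 2 (0.94), where Sdhb was listed at 0. Complex IV had 4 rises and 2 falls in WT, with Cox7c up by 2.79 ± 0.77 and Cox4i1 up by 2.73 ± 0.54.

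Set against the oocyte, the late 2-cell embryo had 43 of the 80 genes lower and 11 higher in WT, where 33.3% of all genes were lower and 40.4% higher. The median was -0.85, against 0.13 for all genes. Without WT L2C replicate 3, 41 were lower and 13 higher. With the FPKM as deposited the median of all genes was -0.05. Complex I had 21 genes lower and 3 higher, complex II 3 and 0, complex III 5 and 2, complex IV 6 and 2, and complex V 8 and 4. The end points of the range were Ndufa8, at 1.34, 0 and 1.52 in WT late 2-cell embryos against 29.5, 30.6 and 29.5 in WT oocytes (-4.09 ± 0.40), and Uqcrc1, at 13.8, 10.7 and 6.66 against 0.492, 0.561 and 0.484 (2.86 ± 0.21). Uqcrc1 reached the level for testing only through the late 2-cell libraries, where it is high, so its place in the range depends on that filter. Within each of complexes I, III, IV and V some subunits were called higher and others lower than in the oocyte.

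**Figure D3:**
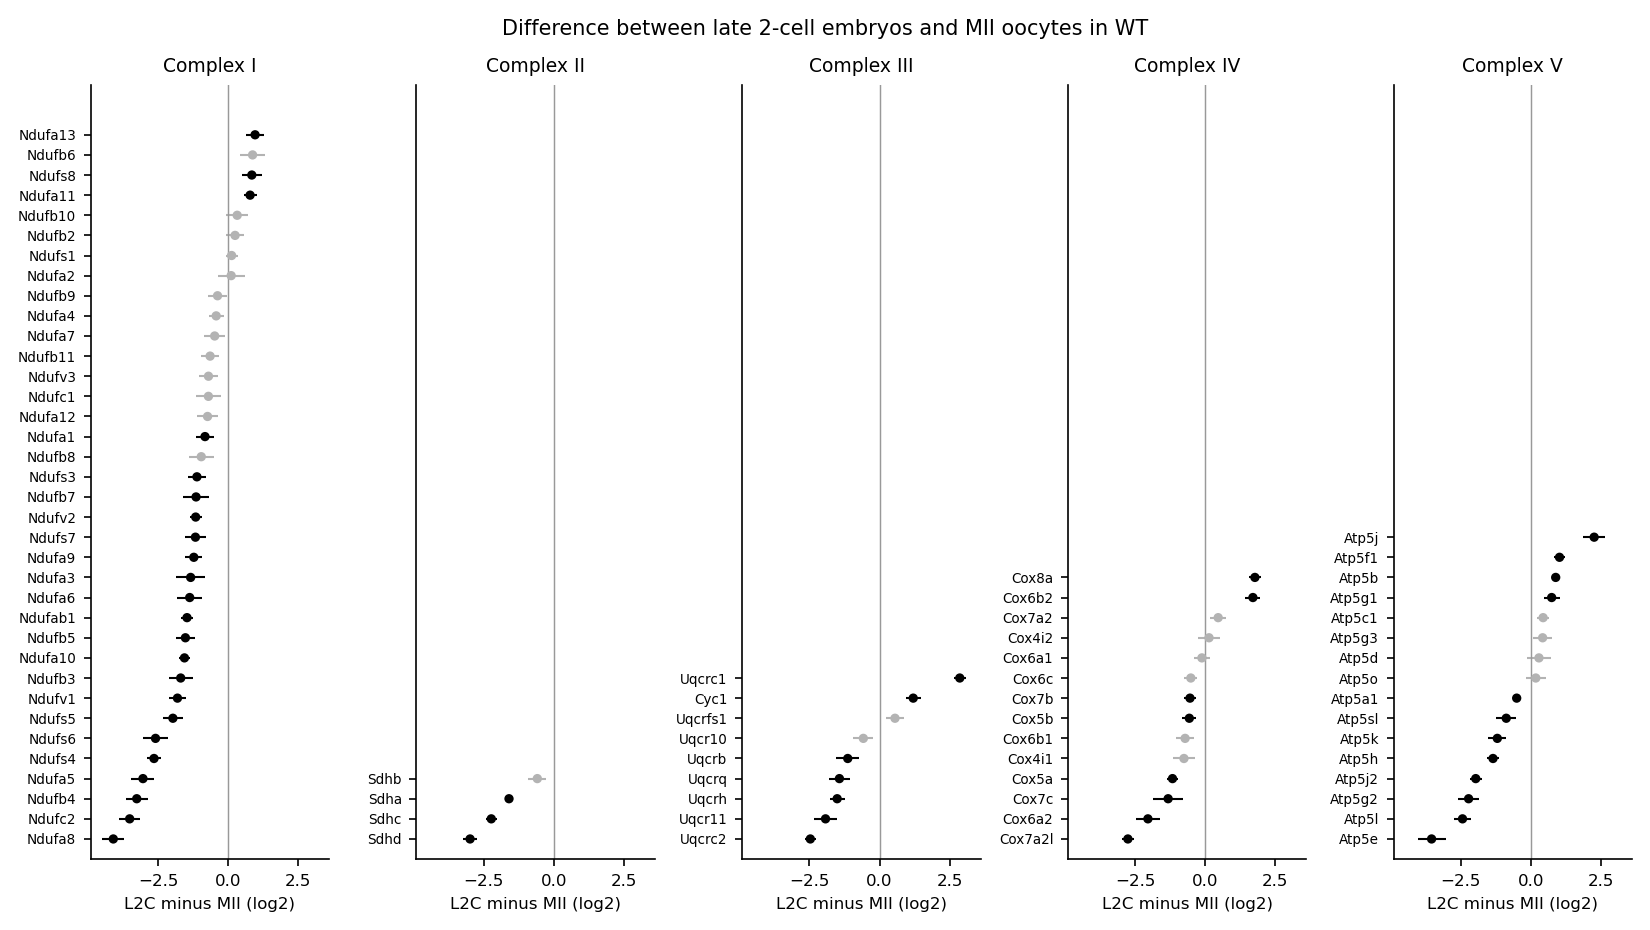
Log2 difference between late 2-cell embryos (L2C) and MII oocytes in WT for tested genes, 1 panel per complex, with bars for the standard error. Black points have a limma adjusted p under 0.05 and grey points do not. Uqcrc1, Atp5j, Cox8a and Cox6b2 lie to the right of 0, and Ndufa8, Atp5e and Ndufc2 lie farthest to the left.

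Several subunits are encoded by more than 1 gene, and these paralogs took different courses. The c subunit of ATP synthase, whose ring turns as protons pass, comes from Atp5g1, Atp5g2 and Atp5g3. Atp5g1 had 17.5 and 14.9 in KO and 18.0, 20.4 and 19.8 in WT oocytes, and 4.06 to 6.85 in KO and 4.25 to 5.40 in WT zygotes. Early 2-cell embryos had 2.48, 3.36 and 1.08 in KO and 10.3, 7.05 and 3.07 in WT, and late 2-cell embryos had 30.0, 27.8 and 23.6 in KO and 45.4, 30.8 and 25.5 in WT. It was thus the highest of the 3 in each late 2-cell library, per length. Atp5g2 declined instead, with 16.8 and 15.1 in KO and 12.3, 14.1 and 13.3 in WT oocytes and 4.37, 1.22 and 2.18 in KO and 1.86, 1.92 and 2.36 in WT late 2-cell embryos. From oocyte to late 2-cell embryo in WT, Atp5g1 differed by 0.74 ± 0.28 (limma adjusted p = 0.0222), Atp5g2 by -2.23 ± 0.36 (8.38e-06) and Atp5g3 by 0.41 ± 0.33 (0.262). The call of Atp5g1 was lost without WT L2C replicate 1 (0.51) or 2 (0.78).

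In complex IV the ubiquitous isoform Cox6a1 had 22.5, 24.6 and 29.0 in KO and 37.7, 42.2 and 38.1 in WT late 2-cell embryos, while Cox6a2, the isoform of heart and skeletal muscle, was at 0 to 1.49 in the 6 libraries. Cox6b2, known as the testis isoform, rose past Cox6b1: in KO late 2-cell embryos Cox6b2 was at 65.2, 45.2 and 38.0 and Cox6b1 at 15.5, 16.5 and 14.2, and in WT Cox6b2 at 35.9, 20.7 and 45.3 and Cox6b1 at 16.0, 7.93 and 18.3. In oocytes the order was the reverse, with Cox6b2 at 9.73 and 8.91 in KO and 8.12 to 10.7 in WT, and Cox6b1 at 23.3 and 24.6 in KO and 20.6 to 25.9 in WT. The 10 markers of sperm and testis summed to 2.73 to 5.23 in KO and 2.77 to 6.06 in WT late 2-cell embryos, and to 8.43 to 9.98 in KO and 6.91 to 8.12 in WT oocytes. Cox4i2, the isoform induced by low oxygen, did not exceed 3.01 in any library, whereas Cox4i1 was at 50.7 to 62.0 in oocytes. Cox8a was at 105 to 140 in late 2-cell embryos of both genotypes, and the muscle and testis isoforms Cox7a1, Cox8b and Cox8c did not exceed 1.26. Cox7b2, also below the level for testing, was listed at 0 in 23 of the 25 libraries and reached 2.97 at most. The supercomplex factor Cox7a2l had 8.85, 5.07 and 5.00 in KO and 5.38, 4.35 and 3.80 in WT late 2-cell embryos, against 30.8 and 33.1 in KO and 33.1 to 39.4 in WT oocytes.

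**Figure D4:**
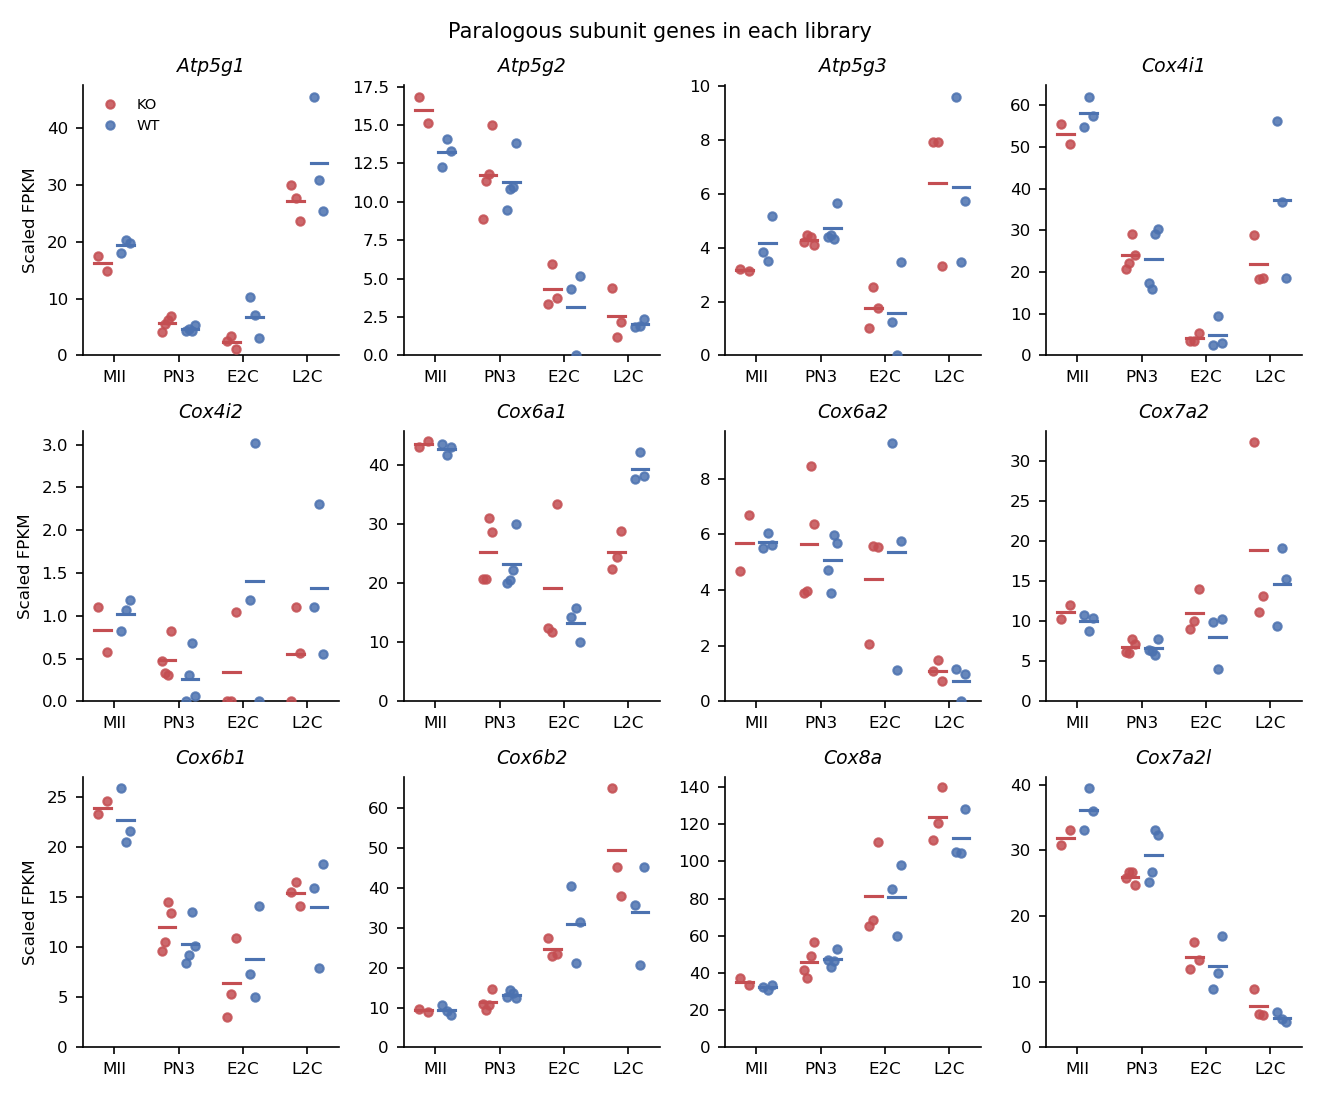
Scaled FPKM (vertical axis, starting at 0) of paralogous subunit genes and of Cox7a2l at each stage, 1 point per library, KO in red left of WT in blue, with bars at group means. Atp5g1 is highest at L2C while Atp5g2 is highest in oocytes and zygotes, and Cox6b2 and Cox8a increase along the stages.

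Between the genotypes few members were called at any stage. In oocytes 1 gene was higher in KO and 0 lower, where 5.99% of all genes were higher and 6.99% lower, and the median difference was -0.02 against 0.00 for all genes. That gene was Ndufa11, an accessory subunit of the membrane arm, with 3.39 and 3.71 in KO and 2.02, 2.08 and 2.42 in WT oocytes (0.52 ± 0.09, limma adjusted p = 0.000309). It was called in 13 of 14 alternative settings, with adjusted p between 0.000278 and 1 and no call when all stages were given an equal spread. Its exons overlap those of Vmac on the opposite strand, and no source used here says whether the counting used strand. At an unadjusted p under 0.05 there were 9 members, 1 higher and 8 lower, where 25.95% of all genes passed. With the FPKM as deposited 1 was called higher and 3 lower, and with TPM or with the length trend removed 1 each way. Without KO MII replicate 2, 1 was called higher and 3 lower. Every KO library lay above every WT library for 7 members and below for 19, where the shares of all genes were 19.6% and 20.8%. In complex V the difference was below 0 for 14 of 16 members, none of them called, where 6072 of the 12079 genes were below 0. The complex V median was -0.06. Atp5g1, for example, had 17.5 and 14.9 in KO and 18.0, 20.4 and 19.8 in WT oocytes (-0.25 ± 0.11).

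In zygotes 4 genes were higher in KO and 0 lower, where 1.78% of all genes were higher and 1.27% lower. At an unadjusted p under 0.05 there were 14 members, 13 higher and 1 lower, where 16.14% of all genes passed. The median difference of the 80 was 0.10, against 0.00 for all genes, and 56 of the 80 were above 0, where 6062 of the 12079 genes were. The 4 belong to complexes I and III. Uqcrq, a small subunit bound to cytochrome b, had 31.0, 29.4, 31.9 and 27.3 in KO and 16.5, 11.8, 18.6 and 27.9 in WT zygotes (0.71 ± 0.16, limma adjusted p = 0.0148). The groups overlap by 1 WT library, replicate 4. Uqcr11 had 2.69, 2.96, 3.88 and 4.93 in KO and 1.16, 1.83, 2.01 and 2.02 in WT (0.73 ± 0.18, limma adjusted p = 0.0236), with no overlap.

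In complex I, Ndufv1 had 4.84, 3.88, 4.55 and 6.27 in KO and 2.72, 2.04, 4.02 and 3.50 in WT zygotes (0.54 ± 0.14, limma adjusted p = 0.0336). It is a core subunit of the arm that takes up electrons, and the groups overlap by 1 library of each genotype. Ndufc2 had 7.82, 8.25, 9.29 and 10.9 in KO and 4.69, 4.37, 7.00 and 7.15 in WT, with no overlap, and was not called (0.58 ± 0.17, limma adjusted p = 0.0628). Every KO library lay above every WT library for 6 members and below for 1, where the shares of all genes were 5.09% and 5.11%.

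The zygote calls rested on few libraries. None of the 4 was called without KO PN3 replicate 3, 1 without WT PN3 replicate 2 or without KO PN3 replicate 4, and 2 without WT PN3 replicate 1. Without KO PN3 replicate 3 the differences were 0.68 for Uqcrq, 0.70 for Uqcr11 and 0.57 for Ndufv1. The 4 were also not called with an equal spread for all stages or with the stage fitted alone. Over oocyte markers, the summed level in zygotes was 2478 to 2947 in KO and 2301 to 2542 in WT, and the part of this in the result was not tested.

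**Figure D5:**
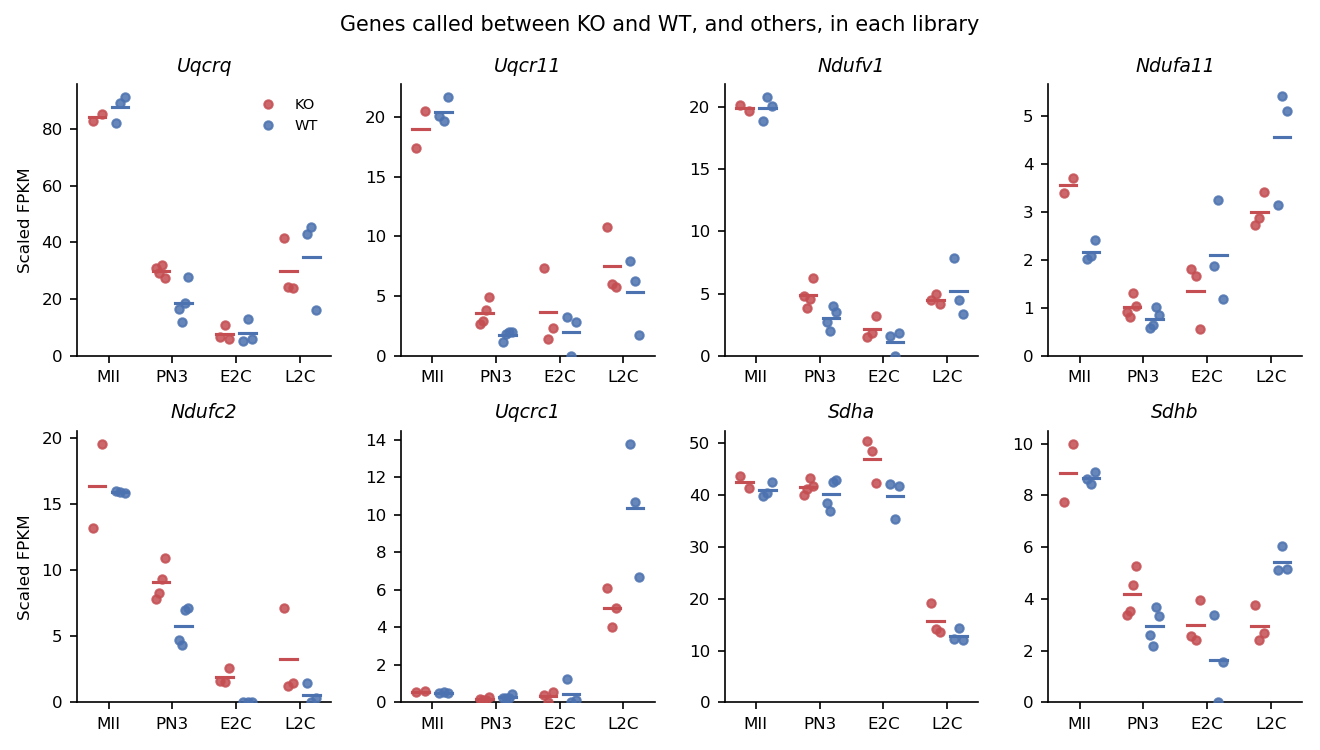
Scaled FPKM (vertical axis, starting at 0) of 4 genes called between KO and WT (Uqcrq, Uqcr11, Ndufv1 and Ndufa11) and of Ndufc2, Uqcrc1, Sdha and Sdhb at each stage, 1 point per library, KO in red left of WT in blue, with bars at group means. The first 3 are higher in KO at PN3, and Ndufa11 is higher in KO at MII.

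In early 2-cell embryos limma called 0 of the 80 genes higher and 0 lower in KO, where 0% and 0.00828% of all genes were called. At an unadjusted p under 0.05 there were 7, where 5.977% of all genes passed. With an equal spread for all stages 2 were called (Ndufc2 higher and Atp5g1 lower), where 212 of the 12079 genes were. The median difference was 0.14, against 0.05 for all genes. Ndufc2 had 1.62, 1.52 and 2.59 in KO and was listed at 0 in all 3 WT libraries, and Ndufa12, of the peripheral arm, had 1.63, 0.545 and 0.728 in KO and was likewise listed at 0 in WT. Atp5g1 had 2.48, 3.36 and 1.08 in KO and 10.3, 7.05 and 3.07 in WT (-1.18 ± 0.42, limma adjusted p = 0.742). Every KO library lay above every WT library for 4 members and below for 0, where the shares of all genes were 5.36% and 4.38%. The 11 markers of the 2-cell stage summed to 114 to 221 in KO and 229 to 408 in WT early 2-cell embryos, with no overlap, and the part of this in the result was not tested.

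In late 2-cell embryos limma again called 0 higher and 0 lower, where 0.447% and 0.323% of all genes were called. At an unadjusted p under 0.05 there were 7, 2 higher and 5 lower, where 17.68% of all genes passed. The median was -0.21, against -0.05 for all genes, and 55 of the 80 were below 0, where 6521 of the 12079 genes were. Every KO library lay above every WT library for 0 members and below for 9, where the shares of all genes were 8.76% and 11.4%. Uqcrc1 was among the 9, with 6.07, 4.04 and 5.02 in KO and 13.8, 10.7 and 6.66 in WT (-0.87 ± 0.29, limma adjusted p = 0.118), and so was Sdhb, with 3.76, 2.40 and 2.70 in KO and 5.11, 6.04 and 5.16 in WT. The 12 oocyte markers summed to 1371 to 1500 in KO and 884 to 1385 in WT late 2-cell embryos, and the part of this in the result was not tested.

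The count rested on WT L2C replicate 3. Without it 9 members were called by limma, 7 lower and 2 higher in KO, but so were 21.42% of all genes, a larger share than that of the members. The lower ones included Atp5k (-1.37 ± 0.43), Sdhd (-1.28 ± 0.29), Ndufb9 (-1.23 ± 0.43), Uqcrc1 (-1.13 ± 0.26), Atp5f1 (-0.68 ± 0.24) and Atp5a1 (-0.64 ± 0.16), and the higher ones Ndufs6 (1.77 ± 0.62) and Cox6c (0.88 ± 0.27), named after these values were seen. In Atp5k, subunit e of the synthase, KO late 2-cell embryos had 9.47, 7.05 and 16.2 and WT 33.5, 23.8 and 15.6, the last being replicate 3. In Cox6c KO had 101, 99.5 and 85.1 and WT 46.4, 56.1 and 117. In both genes replicate 3 lay on the side of the KO libraries. Both were picked from the calls made without replicate 3, so this follows from the choice and is no separate result. The part of stage or library in these differences was not tested. With a weight for each library 10 members were called, where 30.57% of all genes were, and with an equal spread 5, where 15.51% were.

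The change of the KO effect between successive stages was tested as an interaction. None of the 80 genes was called by limma for PN3 against MII, E2C against PN3 or L2C against E2C, where 2.29%, 0% and 0.00828% of all genes were called. At an unadjusted p under 0.05 there were 15, 3 and 6 members, where 14.9%, 5.315% and 11.43% of all genes passed. Leaving out single libraries gave up to 4 calls for PN3 against MII, with 4 without KO MII replicate 2, 2 without KO PN3 replicate 1 and 1 without WT PN3 replicate 4.

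Other genes of the pathway were followed as lists, and their counts are read against the shares of all genes. At PN3 against MII 23.2% of all genes fell and 17.6% rose in KO, and 26.1% and 19.2% in WT. At E2C against PN3 the shares were 12.2% and 8.87% in KO and 18.1% and 12.9% in WT. At L2C against E2C 26.8% rose and 14% fell in KO, and 34.1% and 18.3% in WT. Among 48 assembly factors of complexes I to V, 19 fell and 3 rose in KO and 20 fell and 3 rose in WT zygotes against oocytes. At E2C against PN3, 8 fell in KO and 18 in WT, and 0 rose in either. At L2C against E2C, 12 rose and 4 fell in KO, no larger shares than those of all genes, and 20 rose and 5 fell in WT. The medians of the 3 steps were -0.20, -0.37 and 0.28 in KO and -0.18, -0.47 and 0.70 in WT. Cox17, a copper chaperone for complex IV, is an example chosen after its values were seen. It had 69.3, 76.4 and 70.7 in WT oocytes, 15.3, 15.0, 20.2 and 23.3 in zygotes, 0, 0 and 0.935 in early and 34.7, 15.1 and 8.57 in late 2-cell embryos. Of 14 genes of mitochondrial DNA upkeep and transcription, the falls and rises at the 3 steps in turn were 5 and 3, 4 and 0, and 1 and 5 in KO, and 6 and 2, 6 and 0, and 1 and 8 in WT. Of the 11 nuclear regulators, they were 0 and 2, 0 and 1, and 0 and 8 in KO, and 0 and 4, 1 and 2, and 0 and 9 in WT, so most were called higher at the last step. Gabpa, the DNA-binding subunit of GABP, was at 0.0926 to 0.110 in WT oocytes and 42.6 to 53.8 in WT late 2-cell embryos. Of 23 genes of the citric acid cycle and pyruvate dehydrogenase, the falls and rises were 5 and 3, 2 and 3, and 9 and 7 in KO, and 10 and 6, 4 and 4, and 10 and 8 in WT. Mdh2, malate dehydrogenase, is another example chosen after its values were seen. In WT it fell by 1.81 ± 0.07 at PN3 against MII and rose by 3.32 ± 0.27 at L2C against E2C. In KO the rise at L2C against E2C was 3.03 ± 0.27. Of 12 genes of electron carriers and the ATPase inhibitor, the falls and rises were 2 and 2, 4 and 0, and 1 and 2 in KO, and 5 and 1, 3 and 0, and 0 and 3 in WT.

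Between KO and WT 6 of the 108 tested members of these lists were called in oocytes, a lower share than the 12.97% of all genes, while at PN3, E2C and L2C limma called 0 of them, where 3.055%, 0.00828% and 0.7699% of all genes were called. Polrmt, the mitochondrial RNA polymerase, had 7.41 and 7.20 in KO and 4.43, 4.24 and 4.71 in WT oocytes (0.61 ± 0.09, limma adjusted p = 7.12e-05). Another 3 factors of mitochondrial transcription were lower, Mterf1a by -0.38 ± 0.12, Tfb1m by -0.35 ± 0.11 and Tfam by -0.27 ± 0.09. Tfam had 3.56 and 4.76 in KO and 5.30, 5.47 and 4.85 in WT oocytes. Gabpb1, the partner subunit of Gabpa, was lower by -0.21 ± 0.06, and Pdk3, a kinase that inhibits pyruvate dehydrogenase, was higher by 0.27 ± 0.07. None of the 48 assembly factors was called between the genotypes at any stage.

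The members share a short transcript, which the choice by symbol did not use. Their median transcript length was 681.5 nt, against 2039 nt over 11632 tested genes with a length, and 67 of the 80 had 1147 nt or less, as did the shortest 25% of those genes. Among genes of that length 58 of the 67 members fell in WT zygotes, against 30.3% of 2841 other genes, with medians of -0.85 and -0.03. At E2C against PN3, 31 of 67 fell, against 20.5%, and at L2C against E2C, 30 rose, against 34.5%, with medians of 0.95 and 0.36. With the trend along length taken out of each library, a choice made after seeing the data, 56 genes fell and 4 rose in WT zygotes (median -0.67), and 29 rose and 10 fell at L2C against E2C (median 0.45).

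Some values can include reads of other genes. A pseudogene named after the gene is annotated for 5 of the 80, Atp5c1, Atp5k, Atp5l, Ndufab1 and Uqcrh. Exon bases are shared with a gene on the opposite strand in 26 and with one on the same strand in 5. The latter are Atp5g2, Atp5o, Ndufb2, Ndufb8 and Ndufb9. Promoters of 250 bases before and 50 after the start were found for 70 of the 85 members in RefSeq (Uqcrq was not matched). The NRF1 core GCATGCGC was in 10 of the 70 (14.29%), against 4% of 17224 genes of the files and 6.255% of 9049 tested genes with a promoter. The ETS letters CCGGAAG were in 16 (22.86%), against 12.77% and 20.25%, and the YY1 core AAGATGGCG in 8 (11.43%), against 2.189% and 3.68%. Both strands were searched, and over all 32851 promoters of the table the shares were 2.712%, 8.858% and 1.403%. The 10 with an NRF1 core were Ndufa11, Ndufa6, Ndufa8, Sdhb, Uqcr11, Uqcrc1, Cox6a1, Atp5g2, Atp5k and Atp5l. Of these, 9 fell in WT zygotes, as did 44 of 56 without it, and 14 of 16 with the ETS letters, as did 39 of 50 without them. A YY1 core was in Ndufa9, Ndufc1, Ndufs4, Ndufs6, Ndufs7, Atp5j, Atp5j2 and Atp5sl, and 7 of these 8 fell, as did 46 of 58 without it. A match is a description of the letters and not of binding.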

How the data were processed

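RNA of MII oocytes, PN3 zygotes and early and late 2-cell embryos was sequenced after ribosomal RNA removal with a stranded kit, per the labels' protocols. The authors deposited 1 FPKM value per gene symbol and library (24412 symbols, 25 libraries), and tools listed without role or order are HISAT2, HTSeq, StringTie and Trim Galore 0.4.5, with the build mm10 (GRCm38), per the submitters' processing notes. The FPKM files as deposited sum to 216308 to 252440 per library, carry no depth and cannot be turned back into reads, so precision comes from the number of libraries.

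To scale a library, the 6492 genes that reached an FPKM of 1 in all 25 were set against their geometric means, and the median of these ratios was its divisor. The 12079 genes that reached an FPKM of 1 in 3 or more libraries were fitted as log2(scaled FPKM + 1), so fold changes of low genes are understated. limma 3.58.1 in R 4.3.3 fitted 8 group means with a trended, robust prior, 17 residual degrees of freedom and 1 weight per stage, with Benjamini-Hochberg adjusted p-values over the 12079 genes. The median SD within groups was 0.0677 in oocytes, 0.119 in zygotes, 0.313 in early and 0.284 in late 2-cell embryos. On simulated data false calls stayed near the nominal share when genes kept 1 spread times a stage factor, and exceeded it at every stage when each gene had its own spread at each stage, so single calls near the threshold are less firm than their p-values. Python 3.11.15 with numpy 2.4.6, pandas 2.3.3 and matplotlib 3.10.9 was used for the rest.

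The genes, lists and tests were chosen with earlier results of these data known. Named members were those called between KO and WT, the highest and lowest of each complex in level and in each comparison, and a list of core subunits and isoforms; from the other lists, those called between KO and WT and a few with large steps. The result of 1 called gene is not reported here, and the counts include it. Transcript lengths and overlaps were taken from GENCODE M21 and promoters from RefSeq (GRCm38.p6). Alternatives were other scalings, a pseudocount of 0.1, other filters, other treatments of the spread, a replicate block, each library left out and, chosen after seeing the data, removal of the trend along length.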

Additional observations from a re-analysis of the deposited data

Results flagged for a closer look

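Among the scaled FPKM of the named members in zygotes, 106 groups of 4 libraries were checked for a library far from the other 3, and 4 were found, where chance gives about 1 in 20. Atp5g3 was 5.679 in WT PN3 replicate 4, against 4.328 to 4.472 in the other 3 WT zygote libraries. Sdhd was 21.6 in KO PN3 replicate 4, against 24.04 to 24.29 in the other KO zygote libraries. Uqcrc2 was 24.79 in KO PN3 replicate 3, against 22.55 to 22.82 in the other KO libraries, and 25.79 in WT PN3 replicate 4, against 25.15 to 25.17 in the other WT libraries. None of these genes was called between KO and WT zygotes. Groups of 2 or 3 libraries were not checked.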

How the results depend on the processing

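No result changed its sign as a called value. Depth is unknown, so values near 0, most of all in WT E2C replicate 2, cannot be read as absence. Apart from single libraries left out, 113 counts of called members stayed within 1.5 times the main count and 27 moved, 128 medians stayed within 1 SD and 12 moved, and 2176 values of named members kept their call while 173 lost it. With single libraries left out the numbers were 97 and 12, 108 and 1, and 1351 and 167. The cause of the changes was not tested.

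Counts of members called between KO and WT oocytes (1) were 4 with the FPKM as deposited (1 higher, 3 lower), 2 with TPM, with the comparison fitted alone and with the length trend removed (1 each way), and 0 with the stricter filter, which left Ndufa11 untested, or an equal spread. In zygotes (4) they were 2 with a pseudocount of 0.1, without a filter and with library weights, 0 with an equal spread or fitted alone, and 7 with the replicate block. With an equal spread 2 were called in early 2-cell embryos and 5 in late 2-cell embryos, where library weights gave 10. With an equal spread 16 were called for KO PN3 against MII (63) and 35 for WT (68). Fitted alone, KO E2C against PN3 (27) gave 48, as did library weights, and WT (39) gave 25. Library weights gave 51 for KO L2C against E2C (33). The interaction of PN3 against MII (0) gave 3 with the FPKM as deposited, 2 with library weights, 2 with the block and 1 with the length trend removed. That of L2C against E2C (0) gave 2 with an equal spread and 1 with library weights. Medians moved with the length trend removed to -0.53 for KO and -0.67 for WT at PN3 against MII, and to 0.22 for KO and 0.45 for WT at L2C against E2C. At E2C against PN3 they were -0.98 with TPM in KO, and -1.01 as deposited, -1.32 with TPM and -1.26 with a pseudocount of 0.1 in WT, and the interaction had 0.25 with TPM and with a pseudocount of 0.1. At L2C against E2C in WT, TPM gave 1.29 and a pseudocount of 0.1 gave 1.48. The Smarca4 difference at E2C (-3.19) missed the threshold when fitted alone, and that at L2C (-1.60) when fitted alone, with the block and with a pseudocount of 0.1 (-1.64).

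With each library left out, called members ranged over 1 to 4 in oocytes, 0 to 5 in zygotes and 0 to 9 in late 2-cell embryos between KO and WT, over 9 to 29 for KO E2C against PN3, 21 to 26 for KO L2C against E2C and 0 to 4 for the interaction of PN3 against MII. The WT median of E2C against PN3 ranged over -0.90 to -0.66, and the Smarca4 difference at L2C over -1.85 to -1.41. The main fit did not use the replicate numbers of the titles to pair KO with WT. Same-numbered deviations correlated by 0.013 to 0.43 in zygotes, 0.067 to 0.16 in early 2-cell embryos, -0.12 and 0.045 in oocytes and as low as -0.18 in late 2-cell embryos. In early 2-cell embryos each KO library correlated best with its own number, and at the other stages not every library did. In zygotes the correlations were 0.013 to 0.37 between KO and WT replicates 1 and 2, and 0.067 to 0.43 between replicates 3 and 4. Across these pairs of replicates they were -0.40 to 0.0061. The block raised the zygote calls to 7, all higher in KO.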
